A study of Mus musculus with 6 samples.

Results

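The genes described here are the 31 nuclear genes that bring pyruvate into the mitochondrion, turn it into acetyl-CoA and run the tricarboxylic acid (TCA) cycle, out of 45777 genes in the deposited count table. They were taken by gene symbol, all 31 were found, and all 31 had enough counts to be tested among 16707 tested genes. The tissue is brown fat of wild-type male C57Bl6/J mice. The animals had received intraperitoneal injections for 2 weeks of phosphate-buffered saline (PBS, 3 mice) or of ginsenoside Rb2, a saponin of ginseng (3 mice). The labels state neither dose nor age. The p-values weigh the difference between the groups against the spread within each group of these 6 libraries. Libraries carry the numbers of the table's columns: PBS 1, 2 and 4, and Rb2 1, 3 and 4. Levels are in CPM, counts per 1000000 counts of a library, after scaling by the trimmed mean of M-values (TMM).

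Pyruvate, the end product of glycolysis, crosses the inner mitochondrial membrane through a carrier and is oxidised to acetyl-CoA by the pyruvate dehydrogenase complex. Kinases switch this complex off by phosphorylating its alpha subunit, and phosphatases switch it on again. The cycle then oxidises acetyl-CoA and passes the electrons to the respiratory chain, which brown fat can uncouple from ATP synthesis to make heat.

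Transcripts of 6 of 13 cycle enzymes and of a pyruvate dehydrogenase phosphatase were higher in the Rb2 group, while those of the pyruvate carrier and of pyruvate carboxylase did not pass the test. Of the 31 genes 9 rose and 0 fell (adjusted p under 0.05 by the quasi-likelihood test of edgeR), where 5.33% of all tested genes rose, 5.11% fell and 10.4% did either. The 9 were Cs, Idh3a, Dlst, Dld, Suclg2 and Sucla2 of the cycle, Pdp2 and Pdpr of pyruvate dehydrogenase control, and the malic enzyme Me3. The median log2 fold change was 0.39 over the 31 genes and -0.01 over all tested genes. In 16 of the 31 genes every Rb2 library lay above every PBS library and in 2 every Rb2 library lay below. Among all tested genes those shares were 18.2% and 17.6%.

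Total counts ran from 83642183 to 92666780 per library. The libraries differed in transcripts of other cells. Summed over 15 skeletal muscle markers, the level was 2340, 7250 and 9.16 CPM in PBS 1, 2 and 4 against 2.46, 445 and 261 CPM in Rb2 1, 3 and 4. The 10 endothelial markers summed to 1559 to 1786 CPM with PBS and 866 to 1284 CPM with Rb2, and 5 of them fell. The 8 macrophage markers (102 to 132 CPM against 69.2 to 97.4 CPM) and 3 red blood cell markers (662 to 917 CPM against 318 to 511 CPM) were also lower in each Rb2 library. Of these, 3 macrophage and 2 red blood cell markers fell past the threshold. Fibroblast and progenitor markers (621 to 817 CPM against 446 to 609 CPM, 7 genes) and smooth muscle and pericyte markers (736 to 753 CPM against 611 to 679 CPM, 5 genes) had no gene past the threshold. Neither did 4 white adipocyte markers (47.8 to 283 CPM against 28.4 to 75.4 CPM) or the 2 liver markers (0.714 to 2.58 CPM against 1.41 to 28.7 CPM). No marker of these lists was at 0 counts throughout. The 13 brown adipocyte markers summed to 15731 to 16957 CPM and 12692 to 17056 CPM, and 2 of them, Prdm16 and Elovl3, fell. Ucp1, the uncoupling protein, was at 3983 ± 711 CPM and 3674 ± 910 CPM (SD, n = 3 each). The part of these cell markers in the results below was not tested beyond the muscle covariate given with them, and in bulk tissue fewer cells of a type and less RNA per cell cannot be told apart.

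**Figure D1:**
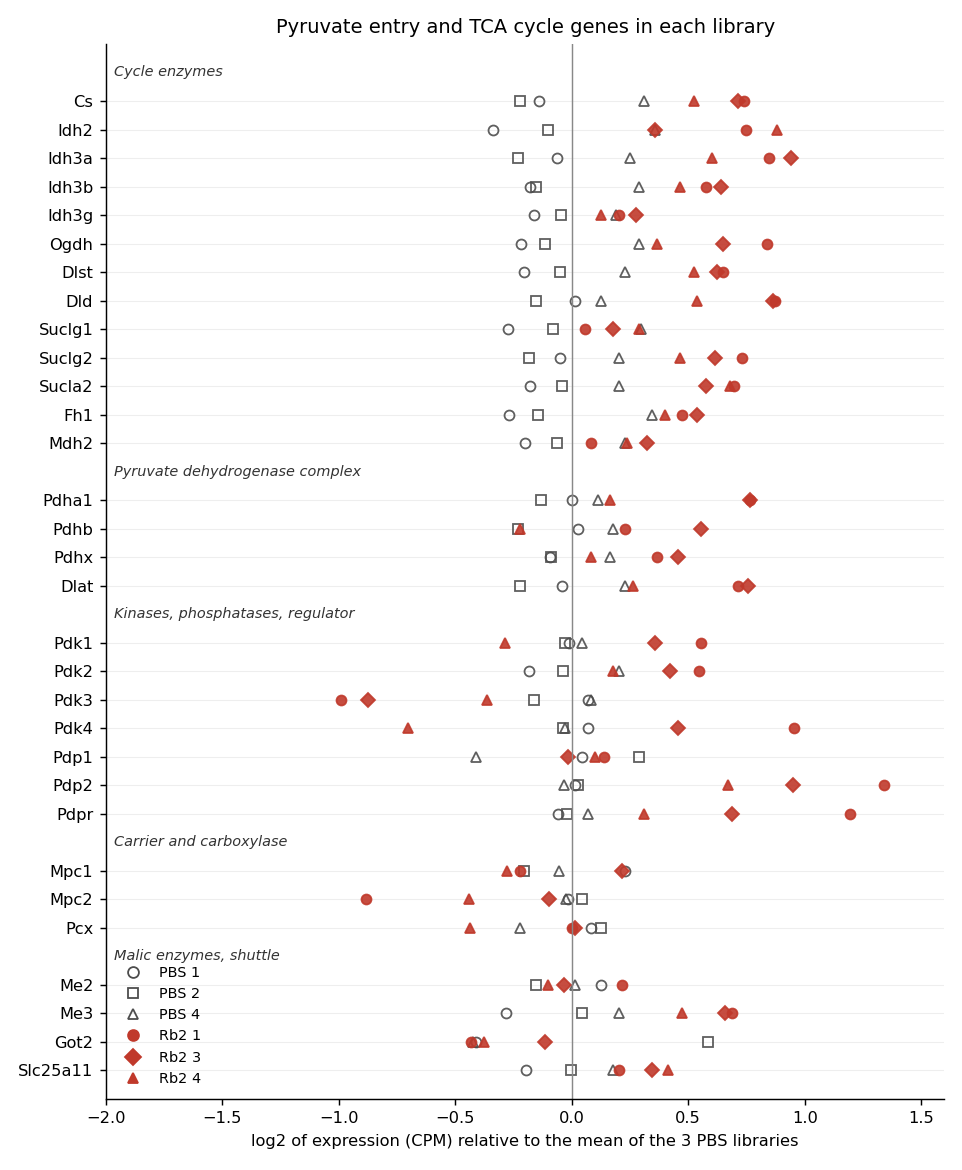
Expression of the 31 genes in each of the 6 libraries, as log2 of CPM relative to the mean of the 3 PBS libraries, arranged by role. Open grey symbols are PBS and filled red symbols Rb2. In 10 of the 13 cycle enzymes all red symbols lie to the right of all grey ones, as in 18.2% of all tested genes. PBS 4 is the highest PBS library in all 13.

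Of the 13 cycle enzymes 6 rose, 7 did not pass the test and 0 fell, where 5.33% of all tested genes rose and 5.11% fell. Their median log2 fold change was 0.61, a 1.52-fold higher level, and all 13 were above 0, as were 49% of all tested genes. Added together, the 13 transcripts were at 8135, 8434 and 10979 CPM in PBS 1, 2 and 4 and at 13929, 13785 and 12586 CPM in Rb2 1, 3 and 4. The highest PBS library stayed below the lowest Rb2 library. PBS 4 was the highest PBS library for all 13 enzymes, and Rb2 4 the lowest Rb2 library for 9 of them.

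Cs (NCBI gene 12974, chromosome 10, 128337727 to 128362482 on the plus strand of GRCm38.p6) encodes citrate synthase, which joins acetyl-CoA to oxaloacetate and opens the cycle. Its levels were 1300, 1225 and 1771 CPM in PBS 1, 2 and 4, against 2386, 2345 and 2066 CPM in Rb2 1, 3 and 4. The groups did not overlap, with PBS 4 nearest to the Rb2 libraries (log2 fold change 0.66 ± 0.18 SE, adjusted p = 0.0477 in edgeR).

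NAD-dependent isocitrate dehydrogenase is built of alpha, beta and gamma subunits. Idh3a (NCBI gene 67834, chromosome 9, 54586511 to 54604662 on the plus strand), the catalytic alpha subunit, had the largest rise in the cycle, from 813, 725 and 1012 CPM to 1532, 1631 and 1293 CPM (log2 fold change 0.80 ± 0.18 SE, adjusted p = 0.0243 in edgeR). Idh3b was also separated between the groups (574 to 791 CPM against 895 to 1012 CPM) but did not pass (0.56, adjusted p = 0.0627). Idh3g overlapped (673 to 858 CPM against 820 to 909 CPM) and was at 0.20 with a 95% interval of -0.14 to 0.54.

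That Idh3a passed while Idh3b and Idh3g did not does not show that the subunits of this enzyme differed from each other. Subunits can be compared directly as a ratio within each library, free of the scaling between libraries. The Idh3a to Idh3g ratio of CPM was 1.21, 0.993 and 1.18 in PBS 1, 2 and 4, against 1.77, 1.79 and 1.58 in Rb2 1, 3 and 4, a 1.52-fold higher ratio. It did not overlap between the groups. An exact two-sided permutation test gave p = 0.1, the smallest that 3 libraries against 3 allow, and 0.145 after adjustment over the 16 ratios computed, which were chosen with the values known. No ratio could pass 0.05 in this design, so this test cannot show whether the subunits differed in their response.

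Idh2, the NADP-dependent mitochondrial isocitrate dehydrogenase, was at 185, 218 and 299 CPM in PBS 1, 2 and 4 and at 393, 299 and 429 CPM in Rb2 1, 3 and 4. Rb2 3 was level with PBS 4 to within 1 CPM, and the gene did not pass (0.68 ± 0.21 SE, adjusted p = 0.0665).

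The 2-oxoglutarate dehydrogenase complex, which makes succinyl-CoA, has the parts Ogdh, Dlst and Dld. Dld, the dihydrolipoamide dehydrogenase that pyruvate dehydrogenase and the branched-chain complex also use, had 411, 364 and 440 CPM in the PBS libraries and 743, 739 and 587 CPM in the Rb2 libraries. It rose by 0.77 ± 0.16 SE on the log2 scale (adjusted p = 0.0202 in edgeR), and the lowest Rb2 library exceeded the highest PBS library by a wide gap. Dlst, the succinyltransferase core, rose from 533, 595 and 718 CPM to 968, 946 and 885 CPM (0.60 ± 0.16 SE, adjusted p = 0.0422 in edgeR). Ogdh, the decarboxylase, had 1110, 1189 and 1568 CPM against 2307, 2021 and 1667 CPM. Its groups were separated narrowly, and it did not pass (0.63, adjusted p = 0.0633).

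Succinyl-CoA synthetase pairs a common alpha subunit, Suclg1, with either Sucla2, which makes the ATP-forming enzyme, or Suclg2, which makes the GTP-forming one. Both beta subunits rose. Sucla2 went from 750, 826 and 975 CPM to 1377, 1264 and 1358 CPM (0.65 ± 0.16 SE, adjusted p = 0.0315 in edgeR), and Suclg2 from 86.6, 78.9 and 103 CPM to 149, 137 and 124 CPM (0.61 ± 0.15 SE, adjusted p = 0.0330). The shared Suclg1 overlapped, at 723 to 1071 CPM against 906 to 1064 CPM, and its log2 fold change was 0.17 with a 95% interval of -0.22 to 0.57. The Sucla2 to Suclg1 ratio was 0.911 to 1.04 in the PBS libraries and 1.28 to 1.52 in the Rb2 libraries (exact permutation p = 0.1, adjusted 0.145). Per kilobase of the longest transcript, the ATP-type subunit was the more abundant beta form in both groups, with 381 CPM per kb for Sucla2 and 26.6 for Suclg2 in the PBS group. Suclg2 shares 1302 bases at 98.9% identity with the transcript Gm15163 (3.85 CPM on average), so a part of its reads could be assigned to either.

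Of the enzymes that close the cycle, neither Fh1 nor Mdh2 passed the test. Fh1, fumarase, had 381 ± 88.8 CPM against 528 ± 24.5 CPM (SD, n = 3 each), and the groups did not overlap (0.47, adjusted p = 0.116). Mdh2, malate dehydrogenase, overlapped at 661 to 890 CPM against 805 to 947 CPM (0.22, adjusted p = 0.394).

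**Figure D2:**
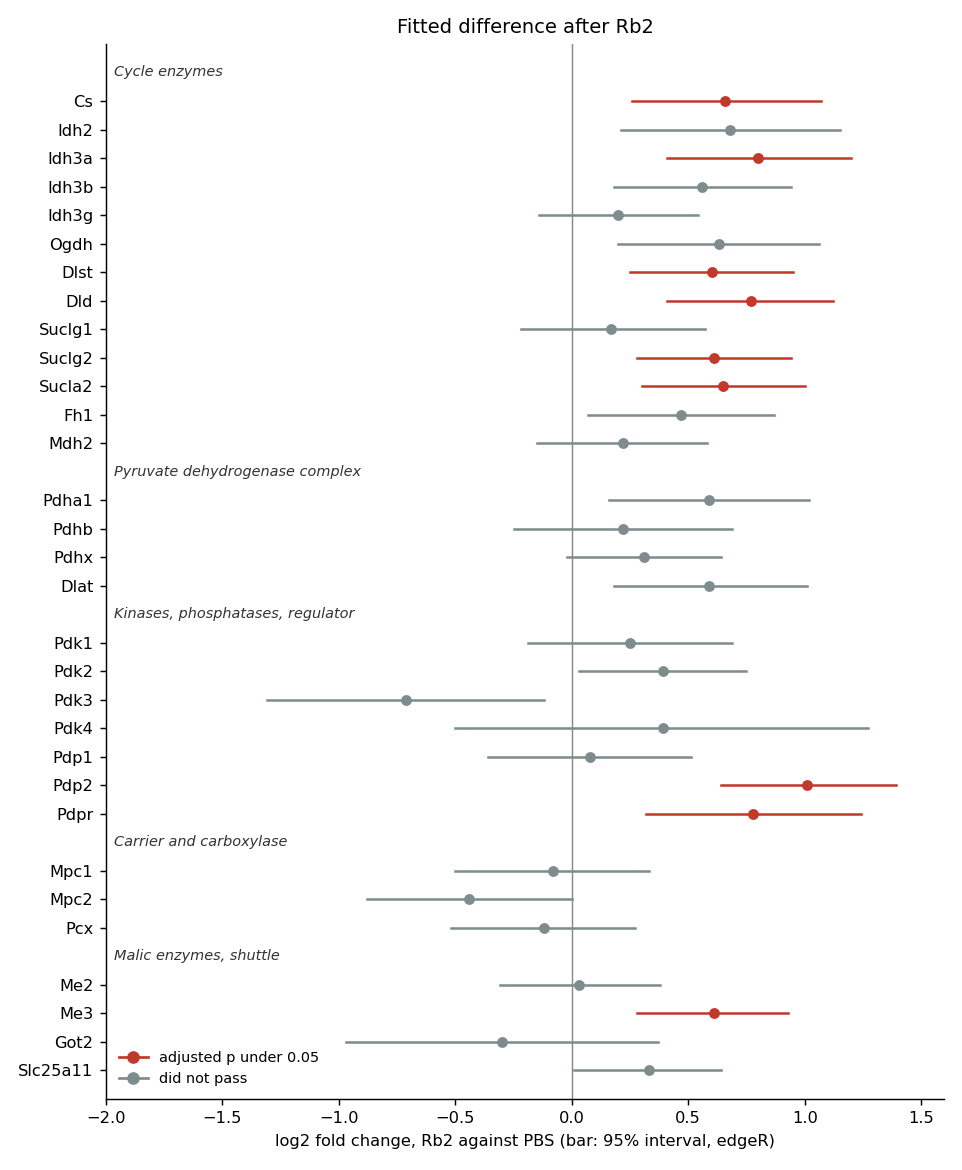
Fitted log2 fold change of each gene, Rb2 against PBS, with its 95% interval from edgeR. Red marks the 9 genes with an adjusted p under 0.05; Pdp2 is farthest to the right at 1.01 and Pdk3 farthest to the left at -0.71, the latter not past the threshold.

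The 4 subunits that belong to the pyruvate dehydrogenase complex alone were above every PBS library in Rb2 1 and Rb2 3, and 0 of 4 passed the test. Pdha1, the alpha subunit that the kinases phosphorylate, was at 1068, 972 and 1154 CPM in PBS 1, 2 and 4 and at 1806, 1812 and 1194 CPM in Rb2 1, 3 and 4. Rb2 4 sat just above PBS 4, and the difference did not pass (0.59 ± 0.19 SE, adjusted p = 0.0760). Dlat, the acetyltransferase, had the same order, with 396, 350 and 477 CPM against 667, 690 and 489 CPM (0.59, adjusted p = 0.0679). Pdhb, the beta subunit, overlapped at 626 to 830 CPM against 628 to 1078 CPM (0.22, adjusted p = 0.507), and so did Pdhx, the protein that anchors Dld (88.5 to 106 CPM against 99.6 to 130 CPM; 0.31, adjusted p = 0.191). Rb2 4 was the lowest Rb2 library for all 4. Without Rb2 4, where 7.02% of all genes rose, Pdha1 (0.76, adjusted p = 0.0175 in edgeR) and Dlat (0.73, adjusted p = 0.0262) passed. Each passed in only this 1 of the 6 tests with 1 library left out. In the others the adjusted p in edgeR reached 0.252 for Pdha1 and 0.239 for Dlat.

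In the control of the complex, 2 of the 7 genes rose and 5 did not pass, where 5.33% of all tested genes rose. The 2 were a phosphatase catalytic subunit, Pdp2, and a phosphatase regulatory subunit, Pdpr, while Pdp1 and the 4 kinases did not pass. The phosphatase genes were not tested against the kinase genes as groups.

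Pdp2 (NCBI gene 382051, chromosome 8, 104591472 to 104599026 on the plus strand of GRCm38.p6), a catalytic subunit of pyruvate dehydrogenase phosphatase, had the largest rise of the 31 genes. It was at 36.5, 37.0 and 35.5 CPM in PBS 1, 2 and 4 and at 92.1, 70.2 and 57.8 CPM in Rb2 1, 3 and 4. The PBS libraries were nearly level and every Rb2 library was well above them (1.01 ± 0.17 SE, adjusted p = 0.0103 in edgeR). Pdpr, a regulatory subunit of pyruvate dehydrogenase phosphatase, had 50.5, 51.9 and 55.5 CPM against 120, 84.9 and 65.2 CPM (0.78 ± 0.20 SE, adjusted p = 0.0437). Its Rb2 libraries ran in the same order as those of Pdp2, with Rb2 1 highest and Rb2 4 lowest. The other catalytic subunit, Pdp1, was rare (4.35 to 7.06 CPM against 5.73 to 6.37 CPM) and was at 0.08 with a 95% interval of -0.36 to 0.51. Per kilobase, Pdp2 was at 6.39 CPM per kb and Pdp1 at 1.38 in the PBS group. The Pdp2 to Pdp1 ratio was 6.15, 5.24 and 8.16 with PBS and 14.4, 12.3 and 9.35 with Rb2 (exact permutation p = 0.1, adjusted 0.145).

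Pdp2 was the most stable of the 9 rises. It stayed past the threshold in 5 of the 6 tests with 1 library left out (log2 fold change 0.82 to 1.15), and without PBS 1 it was at 1.02 (adjusted p = 0.0567 in edgeR). Pdpr stayed in 1 of the 6, that without Rb2 4, and was at 0.52 (adjusted p = 0.0927) without Rb2 1.

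Pdk4 (NCBI gene 27273, chromosome 6, 5483351 to 5496278 on the minus strand) is the kinase isoform that fasting and fatty acids are known to induce. Its level was 1079, 1006 and 1011 CPM in PBS 1, 2 and 4, and 2002, 1412 and 633 CPM in Rb2 1, 3 and 4. Rb2 1 and Rb2 3 lay above all PBS libraries and Rb2 4 lay below them all, so the spread within the Rb2 group (SD 687 CPM) was far wider than in the PBS group (SD 40.6 CPM). The fit gave 0.39 with a 95% interval of -0.50 to 1.27 (adjusted p = 0.524 in edgeR). This value turned on single libraries: it was -0.01 (adjusted p = 0.991) without Rb2 1 and 0.72 (adjusted p = 0.0358) without Rb2 4.

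Pdk2, the kinase found in most tissues, had 189, 209 and 246 CPM against 314, 287 and 241 CPM (0.39, adjusted p = 0.140). Rb2 4 fell within the PBS range. Pdk1, a target of hypoxia-inducible factor, was at 75.4, 74.5 and 78.0 CPM and 112, 97.1 and 62.2 CPM (0.25, adjusted p = 0.421), again with Rb2 4 below every PBS library. Without Rb2 4, where 7.02% of all genes rose, Pdk1 was at 0.45 (adjusted p = 0.048 in edgeR). It passed in only this 1 of the 6 tests with 1 library left out. Pdk3 was low in abundance, with 1.75, 1.49 and 1.76 CPM against 0.838, 0.909 and 1.30 CPM (71 to 172 counts per library). All its Rb2 libraries were below the PBS ones, and it did not pass (-0.71, adjusted p = 0.110). Per kilobase, Pdk4 was the most abundant kinase transcript in the PBS group at 296 CPM per kb, above Pdk2 at 95.5, Pdk1 at 14.6 and Pdk3 at 0.788.

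**Figure D3:**
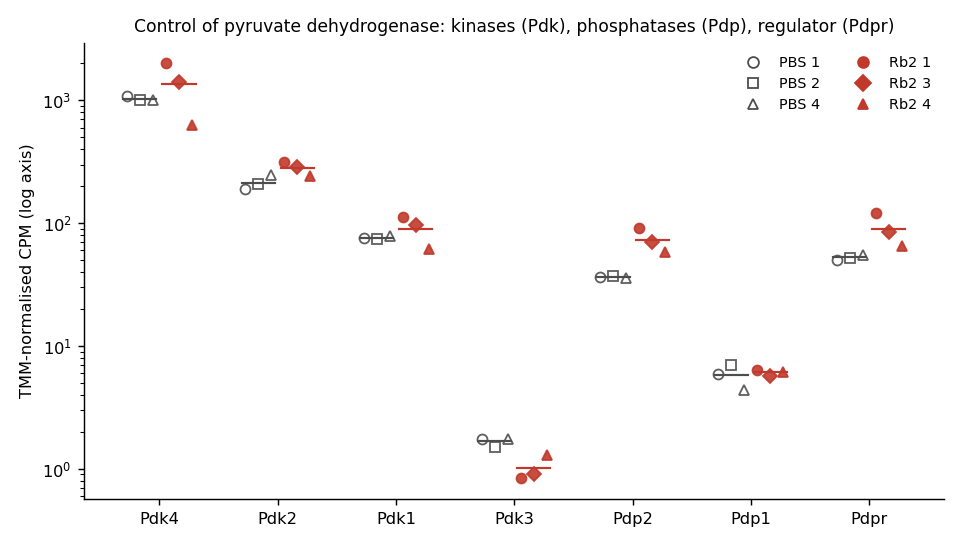
TMM-normalised CPM on a log axis for the 4 kinases, the 2 phosphatases and the regulatory subunit; each symbol is 1 library and each bar a group mean. The Rb2 symbols of Pdp2 and Pdpr all lie above the PBS symbols, while those of Pdk4 run from 633 to 2002 CPM on both sides of the PBS group.

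Promoter windows of 300 bases, from 250 before to 50 after a RefSeq transcript start (GRCm38.p6), were listed for 28 of the 31 genes. Idh3a, Pdp1 and Me2 had no window and were not searched. They were searched on both strands for CACGTG, the E-box bound by clock and MYC-type factors, and for TGACGTCA, the cAMP response element. Further searches were for the motif of nuclear respiratory factor NRF1, for TNAAGGTCA (bound by estrogen-related receptors) and for TTANGTAA (the D-box). The E-box was in windows of 5 of the 28 genes, or 17.9%, against 11.2% of the tested genes with a window and 7.15% of all windows. Pdp2 and Pdpr were among the 5, with Ogdh, Pdk2 and Pcx. The cAMP element was in 3 of 28 (10.7%; 3.22% of tested genes and 1.79% of all windows), namely Ogdh, Mdh2 and Pdpr. The NRF1 motif was in 2 of 28 (7.14%; 10.2% of tested genes and 4.60% of all windows), Dld and Sucla2. The other 2 motifs were in 0 of 28 (1.06% and 1.91% of tested genes, and 1.28% and 2.32% of all windows). Some genes, such as Ogdh, have several windows, and a match in any of them counted for the gene. Shares of genes are therefore not the same measure as shares of all windows. Shown here is the stretch before the RefSeq gene start for the 2 control genes that rose and for Sucla2, 5′ to 3′ on the plus strand, with the motif matches in capitals. The bases of Pdp2 are chr8:104591222-104591471, those of Pdpr chr8:111094495-111094608, and those of Sucla2 chr14:73552536-73552785. A match describes these letters only.
Pdp2: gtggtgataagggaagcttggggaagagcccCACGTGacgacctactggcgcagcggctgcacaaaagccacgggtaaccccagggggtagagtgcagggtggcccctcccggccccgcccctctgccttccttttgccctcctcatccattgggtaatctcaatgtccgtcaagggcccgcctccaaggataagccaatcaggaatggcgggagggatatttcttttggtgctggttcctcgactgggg
Pdpr: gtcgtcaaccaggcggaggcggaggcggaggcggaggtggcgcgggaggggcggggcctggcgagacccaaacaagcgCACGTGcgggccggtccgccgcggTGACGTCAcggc
Sucla2: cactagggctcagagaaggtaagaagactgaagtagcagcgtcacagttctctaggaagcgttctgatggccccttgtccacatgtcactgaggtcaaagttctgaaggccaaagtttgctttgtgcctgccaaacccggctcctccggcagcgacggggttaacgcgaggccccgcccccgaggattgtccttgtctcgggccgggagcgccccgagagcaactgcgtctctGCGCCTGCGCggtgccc

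Counted from the transcript start of the window, the Pdp2 E-box begins at base -219. In Pdpr the E-box begins at -172 and the cAMP element at -148, and RefSeq places the gene's first base within that window, where the printed stretch ends. The NRF1 match of Sucla2 begins at -17.

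None of the genes for pyruvate entry and carboxylation passed the test, and all 3 had a log2 fold change below 0, of which Mpc1 (0.04) and Pcx (0.16) turned above 0 with the offset for GC content and length. Mpc2, a subunit of the mitochondrial pyruvate carrier, was at 515, 536 and 513 CPM in PBS 1, 2 and 4 and at 282, 487 and 384 CPM in Rb2 1, 3 and 4. Every Rb2 library was below every PBS library, and Rb2 1 was lowest (-0.44 ± 0.19 SE, adjusted p = 0.164). Mpc1, its partner, was at 880, 653 and 724 CPM against 645, 869 and 620 CPM (-0.08, 95% interval -0.50 to 0.33). Mpc1 has a copy, Mpc1-ps, that matches it over 261 bases at 100% identity and had 254 CPM on average, so its counts are uncertain. Pcx, pyruvate carboxylase, which makes oxaloacetate to refill the cycle, was at 591, 607 and 479 CPM against 560, 566 and 413 CPM (-0.12, 95% interval -0.52 to 0.27).

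Citrate synthase and Mpc2 can also be compared within a library. The Cs to Mpc2 ratio was 2.53, 2.29 and 3.45 in PBS 1, 2 and 4, against 8.45, 4.82 and 5.39 in Rb2 1, 3 and 4, a 2.22-fold higher ratio without overlap (exact permutation p = 0.1, adjusted 0.145). That p is the smallest possible here. The pair was chosen with Cs known to be higher and Mpc2 lower in every Rb2 library, so the separation adds nothing to their single values. Of the 16 ratios 11 did not overlap between the groups.

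**Figure D4:**
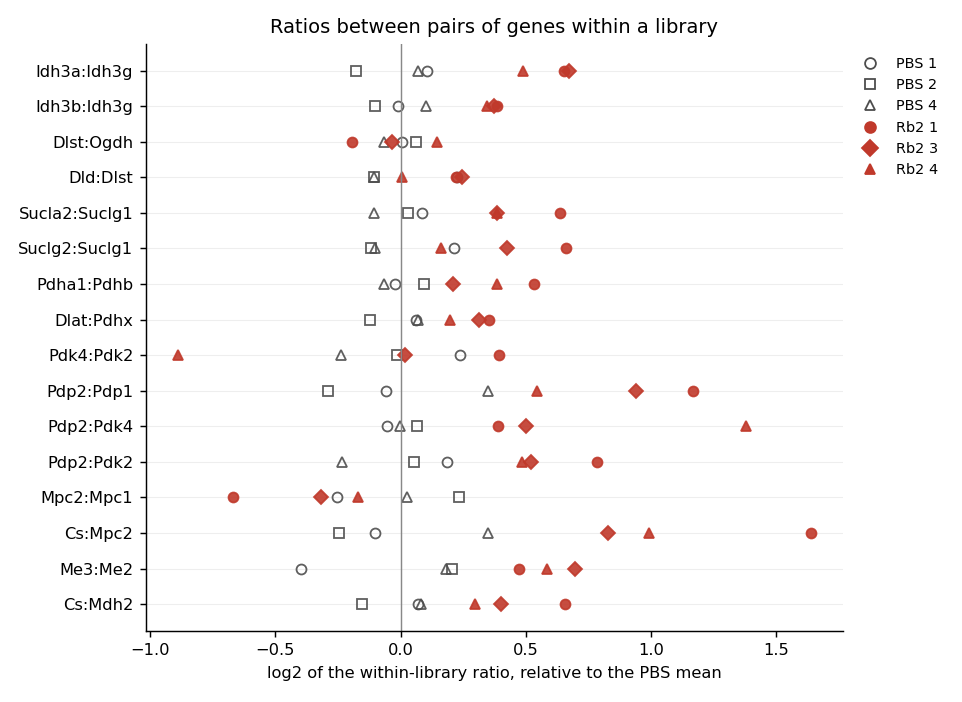
Ratio of CPM between 16 pairs of genes within each library, as log2 relative to the PBS mean of that pair. Scaling between libraries cancels in these ratios; Idh3a to Idh3g, Sucla2 to Suclg1, Pdp2 to Pdp1 and Cs to Mpc2 show all Rb2 libraries to the right of the PBS ones, while Dlst to Ogdh overlaps.

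Among the malic enzymes and the malate-aspartate shuttle 1 of 4 genes rose, where 5.33% of all tested genes did. Me3, the mitochondrial NADP-dependent malic enzyme that turns malate into pyruvate, had 26.0, 32.6 and 36.2 CPM against 50.8, 49.9 and 44.0 CPM. The groups did not overlap (0.61 ± 0.15 SE, adjusted p = 0.0311 in edgeR). It shares 569 exon bases with A230065N10Rik on the opposite strand, and the reads of both cannot be told apart if strand was not used in counting. Me2, the NAD-dependent form, was lower in abundance and level between the groups (8.40, 6.93 and 7.82 CPM against 8.97, 7.54 and 7.20 CPM; 0.03, 95% interval -0.31 to 0.38).

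Got2, the mitochondrial aspartate aminotransferase, was at 26.9, 53.8 and 26.7 CPM in PBS 1, 2 and 4 and at 26.5, 33.0 and 27.6 CPM in Rb2 1, 3 and 4. The single high value was that of PBS 2, the library with the most muscle transcripts, and without it the log2 fold change went from -0.30 to 0.12 (adjusted p = 0.512 and 0.721). Got2 matches Gm10874 over 1637 bases and Got2-ps1 over 1293 bases at 98.8% and 99.1% identity, so its level in CPM is uncertain. Slc25a11, the oxoglutarate-malate carrier of the shuttle, was at 105, 121 and 136 CPM against 139, 154 and 161 CPM. It did not pass (0.33, adjusted p = 0.160). It shares 189 exon bases with Rnf167 (46.0 CPM) on the opposite strand; 7 of the 31 genes have such an overlap, and among the 5 partners with a level in the table Rnf167 was the most abundant.

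Genes of the same pathway outside these 31 were taken from a list of 42, of which 41 were tested. The list was chosen with earlier results of these data known. Of these 41 genes 6 rose and 0 fell (14.6% higher), where 5.33% of all tested genes rose and 5.11% fell. Their median log2 fold change was 0.28, against -0.01 over all tested genes. In 16 of the 41 every Rb2 library lay above every PBS library, and in 5 every Rb2 library lay below. Those shares were 18.2% and 17.6% among all tested genes. Glud1, the glutamate dehydrogenase that feeds 2-oxoglutarate into the cycle, was at 121, 121 and 143 CPM in PBS 1, 2 and 4, against 229, 204 and 222 CPM in Rb2 1, 3 and 4 (0.77 ± 0.14 SE, adjusted p = 0.0125 in edgeR). Acss1, which makes acetyl-CoA from acetate in the mitochondrion, was at 87.7, 111 and 135 CPM against 244, 251 and 206 CPM (1.07, adjusted p = 0.0104). In both genes the groups were apart.

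Ppm1k (1.18) and Dbt (0.88), a phosphatase and a subunit of the branched-chain ketoacid dehydrogenase, and Dhtkd1 (0.98), a relative of Ogdh in lysine breakdown, also rose. Subunits of succinate dehydrogenase did not pass: Sdha was at 0.55 (adjusted p = 0.0760), Sdhd at 0.32 (adjusted p = 0.189), Sdhb at 0.09 (adjusted p = 0.740) and Sdhc at 0.09 (adjusted p = 0.776). Among genes that carry citrate out of the mitochondrion and use it in the cytosol, Slc25a1, the citrate carrier, was at 883, 706 and 745 CPM against 422, 596 and 288 CPM. The groups did not overlap and the gene did not pass (-0.84, adjusted p = 0.0606). Slc25a1 and the succinate dehydrogenase subunits were chosen for mention after their values were seen. Pdha2, the testis form of Pdha1, had 0 counts in all 6 libraries, which allows at most 3 counts or 0.0324 to 0.0359 CPM each.

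Transcripts rich in G and C were lower in the Rb2 libraries across the genome (Spearman rho of log2 fold change and GC content -0.333 over 15779 genes, a description, since genes do not replicate one another). The median GC content was 47.7% for the cycle enzymes, 46.1% for the dehydrogenase subunits and 47.7% for its control genes, against 49.8% for all tested genes. When GC content and length were fitted as an offset, 5 of the 31 genes rose, where 4.66% of all genes did: Idh2 (0.95, adjusted p = 0.0360 in edgeR), Idh3a (0.76, adjusted p = 0.0405), Pdp2 (0.97, adjusted p = 0.00951), Pdpr (0.74, adjusted p = 0.0422) and Slc25a11 (0.56, adjusted p = 0.0452). The median over the cycle enzymes was then 0.55. With the muscle markers as a covariate Idh3a, Dld and Pdp2 rose, where 2.68% of all genes did, and the cycle median was 0.51. With library size as the only scaling, which moves the median of all genes to -0.10, 3 of the 31 rose, where 2.94% of all genes did.

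**Figure D5:**
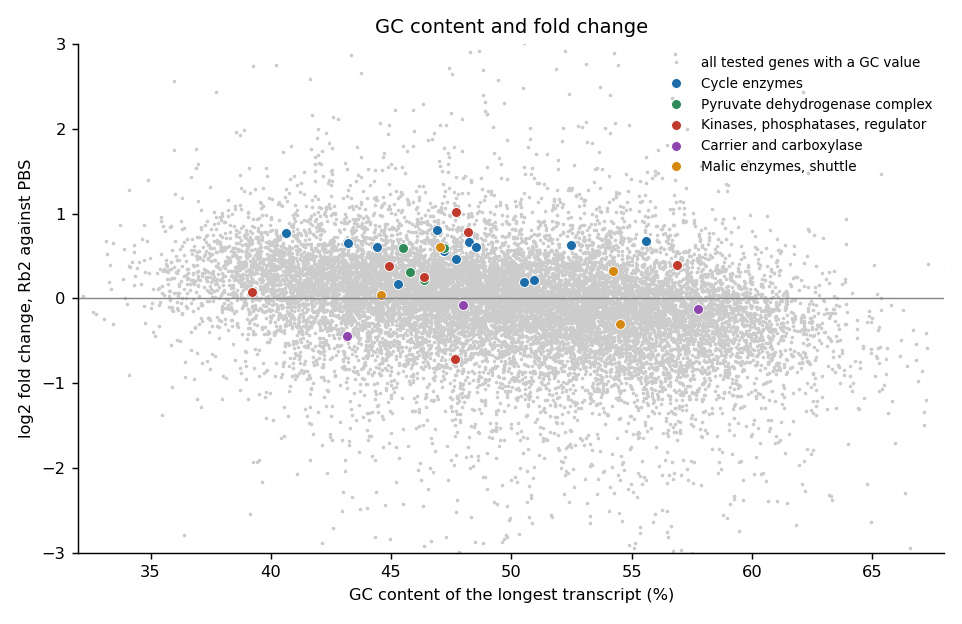
Log2 fold change (Rb2 against PBS) over the GC content of the longest transcript for 15779 tested genes in grey, of which 207 lie outside the plotted range, with the 31 genes coloured by role. The grey cloud slopes downward; the 13 cycle enzymes lie above 0 along the GC axis, including Idh2 at 55.6% GC.

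The number of calls depended on single libraries. Without PBS 1 it was 0 of 31, where 0.705% of all genes rose. Without PBS 2, Rb2 1 or Rb2 3 it was 1, Pdp2 in each case, where 0.711%, 1.61% and 1.95% of all genes rose, so calls became fewer among all genes too. Without PBS 4, the PBS library nearest to the Rb2 group, it was 12, where 3.92% of all genes rose, and without Rb2 4 it was 14, where 7.02% did. The cycle median stayed between 0.53 and 0.71 in these 6 tests, and all 13 cycle enzymes were above 0 in each. With both PBS 1 and PBS 2 left out, which leaves 1 PBS library that is assumed to vary like the Rb2 ones, 0 genes passed, the cycle median was 0.35 and 11 of 13 were above 0.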

How the data were processed

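The authors deposited 1 table of raw read counts per gene (RefSeq transcripts, NCBI gene IDs) for 6 libraries. Per the labels, RNA was prepared with a strand-marking poly(A) kit. The submitters' processing notes name the build mm10 and the tools StringTie, Bowtie2, HISAT2 and Trimmomatic, with roles, versions, counting program and strand setting not given in the sources used here. Column numbers could not be tied to the sample titles and name libraries only.

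All genes were fitted together with edgeR 4.0.16 (R 4.3.3): TMM factors, expression filter with a count minimum of 10 and a total of 15, robust quasi-likelihood test, Benjamini-Hochberg adjustment over 16707 genes. SE is the log2 fold change over the square root of F. The scripts were tested on simulated data. No 2 libraries were duplicates (Pearson r of log2 CPM 0.920 to 0.979). A count of 0 allows at most 3 counts, which like all depth limits covers counting error only.

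Promoter windows and gene positions are from RefSeq (GRCm38.p6, which mm10 stands for), transcript lengths, GC content (94.4% of tested genes) and exon overlaps from GENCODE M21. Similar transcripts were found with blastn, at 95% identity over 200 bases. The offset used splines with 5 degrees of freedom, fitted per library. Of the 31 genes, those past the threshold and a fixed set of others are given in every library, and the rest by range, by mean or in every library. The genes, lists, ratios and alternatives were chosen with earlier results of these data known. The alternatives were DESeq2 (1.42.0) size factors and Wald test, limma-voom (3.58.1), other scalings, filters, thresholds, the offset, the covariate, left-out libraries and a block. The wider pathway list is given by its counts, with some genes named; 1 gene among those that rose is not reported here.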

Additional observations from a re-analysis of the deposited data

How the results depend on the processing

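The count of 9 genes higher with Rb2 was 9 under DESeq2 size factors (5.34% of all genes rose) and a count minimum of 50 (7.89% of all). It was 8 under upper-quartile factors (4.78% of all) and no expression filter (3.25% of all). It was 6 with limma-voom (3.62% of all genes rose), 15 with the DESeq2 Wald test (10.1% of all), 14 at an adjusted p under 0.1 (10.5% of all), 5 with the offset for GC content and length, 3 with library size alone and 3 with the muscle covariate. The matching counts of the 6 cycle enzymes were 10 (DESeq2 Wald), 2 (offset), 2 (library size) and 2 (muscle covariate), and those of the 2 complex and control genes were 4 (DESeq2 Wald and adjusted p under 0.1) and 1 (limma-voom, library size, muscle covariate). With 1 library left out the ranges were 0 to 14 for all, 0 to 10 for the cycle and 0 to 6 for complex and control. No gene was called lower in any of these. Without both PBS 1 and PBS 2 the counts were 0, 0 and 0 in edgeR (2 of the 31, and 11.6% of all genes, at an unadjusted p under 0.05; 0 of all genes were called), the cycle median was 0.35, and Suclg1 (-0.12), Mdh2 (-0.01), Pcx (0.10) and Got2 (0.12) changed sign. The cause was not tested, and fewer samples remain there.

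Column numbers 1 and 4 occur in both groups but did not pair the libraries: deviations from the group means correlated at -0.197 and -0.215 between the same numbers and at -0.472 to 0.506 between others. With a replicate block on these numbers, which keeps 4 libraries, 0 genes, 0 cycle enzymes and 0 complex and control genes passed in edgeR (7 of the 31, and 14% of all genes, at an unadjusted p under 0.05). Pdhb (-0.10), Me2 (-0.01) and Got2 (0.01) changed sign. The same 4 libraries without a block, chosen after seeing the data, gave 0, 0 and 0 calls (9 of the 31, and 16.1% of all genes, at an unadjusted p under 0.05) and Pdhb -0.08, Me2 -0.00 and Got2 0.01.

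Other changes of sign were of genes near 0: Pdp1 -0.01 and Me2 -0.05 with library size alone, Pdp1 -0.17, Mpc1 0.04, Pcx 0.16 and Me2 -0.07 with the offset, and Me2 -0.04 with the muscle covariate. With 1 library left out, Pdk4 ran from -0.01 to 0.72, Pdp1 from -0.11 to 0.24, Mpc1 from -0.25 to 0.05, Pcx from -0.24 to 0.00, Me2 from -0.06 to 0.10 and Got2 from -0.49 to 0.12. Of 558 values (31 genes, 18 settings) 432 kept direction and side of the threshold, 84 lost the call, 17 gained it and 25 reversed. Only genes that passed in the main test can lose a call, so the 84 should not be read as a share of the 558. Among the genes that passed, the call held in 14 of the 18 settings for Pdp2, 11 for Idh3a and 10 for Dld. For each of the rest it held in 5 (Cs) to 8 of the 18. Depth limits Pdk3 most, at 0.838 to 1.76 CPM.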
